A study of Mus musculus with 17 samples.

Results

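Genes of 10 transporters by which barrier endothelium is usually recognised were followed in mouse spinal cord during targeted experimental autoimmune encephalomyelitis (EAE). They were Slc2a1, Abcb1a, Abcg2, Mfsd2a, Slc7a5, Slco1c1, Slco1a4, Slc16a1, Slc38a5 and Slc7a1. The members were chosen by gene symbol alone, as the probe sets that the array's annotation gives to 1 of these 10 genes and to no other. That gave 10 of 18194 genes, or 16 of 34958 probe sets with a single gene, and all 16 are described here. Slc2a1 and Slc7a1 had 3 probe sets each, Abcb1a and Slc16a1 had 2 each, and the other 6 genes had 1 each.

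RNA of thoracic cord was measured on 1-colour Affymetrix arrays with 1 array per mouse, in 6 anti-RGMa mice, 5 isotype control mice and 6 naïve mice. All were female C57BL/6 mice with a labelled age of 8 weeks. The anti-RGMa and isotype control mice both had targeted EAE, in which a mouse is immunized with a myelin oligodendrocyte glycoprotein peptide in adjuvant. Some weeks later it receives TNF-α and IFN-γ in the thoracic cord through a laminectomy, with pertussis toxin. The labelled age therefore cannot be read as the age at sampling of mice with EAE, and whether naïve mice matched them in age is not known. The anti-RGMa mice then received a humanized monoclonal antibody against repulsive guidance molecule A, and the isotype control mice received palivizumab, each at 10 mg/kg intravenously, first at 9 days after the cytokine injection (DPI). Naïve mice had neither immunization nor surgery nor antibody, so that a difference from naïve holds all of these steps together. A piece of cord 4.5 mm wide around the injection site was taken after perfusion with PBS, at 14 DPI in the mice with EAE.

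The endothelium of brain and spinal cord is sealed by tight junctions and takes up few vesicles, so that nutrients have to be carried across it by membrane proteins. Uptake carriers bring in glucose, lactate, amino acids, thyroid hormone and a lysolipid form of docosahexaenoic acid, and ATP-driven pumps send lipophilic compounds back to the blood. Several of these genes are also used outside vessels. Slc16a1 is expressed by oligodendrocytes and astrocytes, Slco1c1 and Slc2a1 by astrocytes, and Slc7a5 and Slc7a1 by activated lymphocytes and macrophages.

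The deposited values are linear signals that the authors computed with MAS5.0 and scaled to a common trimmed mean. They are given here as log2 signals, where a step of 1 is a doubling. Levels of different probe sets were set against each other only to pick the brightest of a gene and to scale arrays to endothelial markers. Groups were compared with limma in 1 fit over the 17 arrays, and a difference was called where the p adjusted by Benjamini-Hochberg over all 34958 probe sets was under 0.05. The arrays were whole cord, so that fewer cells of a type and less RNA per cell cannot be told apart.

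The median signal of an array ranged from 136 to 157 in anti-RGMa mice, from 137 to 165 in isotype control mice and from 132 to 145 in naïve mice. Markers of cord tissue were bright in every array, with a mean log2 signal over 7 oligodendrocyte genes of 12.93 to 13.23 in anti-RGMa, 12.77 to 13.11 in isotype control and 12.98 to 13.21 in naïve mice. Arrays of the isotype control group were uneven in muscle genes. The mean log2 signal of 7 skeletal muscle genes was 5.38 to 7.64 in anti-RGMa mice, 5.35, 4.84, 8.81, 13.05 and 9.41 in isotype control replicates 1, 2, 3, 4 and 5, and 4.43 to 8.33 in naïve mice. Within the anti-RGMa group only, replicate 6 stood apart. Its mean over 8 neuron genes was 11.41, where the other 5 arrays had at least 11.96. Its mean over 10 macrophage and monocyte genes was 11.28, where the others had at most 10.58. Isotype control replicates 1 and 5 had similar values. Their neuron means were 11.23 and 11.32, and their macrophage and monocyte means 11.50 and 11.28.

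Against naïve cord the 10 transporters split into genes that rose and genes that fell. In anti-RGMa mice 5 of the 16 probe sets were called higher, 2 were called lower and 9 were not called, where 17% of all probe sets were called higher and 20.9% lower. In isotype control mice 5 of the 16 were called higher, 4 lower and 7 neither, against a background of 21.4% higher and 26.3% lower. By the brightest probe set of each gene, Slc38a5, Slc16a1, Abcg2 and Slc2a1 were higher in both groups with EAE, Mfsd2a and Slc7a1 were lower in both, Slco1a4 and Slco1c1 were lower in isotype control mice, and Slc7a5 and Abcb1a were not called. By the brightest probe set of each of 18194 genes, 19.8% of all genes were called higher and 20.8% lower than naïve in anti-RGMa mice, and 24.2% higher and 26.6% lower in isotype control mice. Bright probe sets were called more often than dim ones, and of 20401 whose mean log2 signal was 7 or more, 27.3% were higher and 37.6% lower in isotype control mice. The numbers of transporters called are read against these shares, and none of them is taken as particular to transporters.

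Between anti-RGMa and isotype control mice 0 of the 16 probe sets were called, and 1 had an unadjusted p under 0.05. Of all probe sets 0% were called higher and 0% lower by limma, the smallest adjusted p was 0.0852, and 4705 had an unadjusted p under 0.05. Without anti-RGMa replicate 6, whose markers stood apart from its own group only, 2.81% were called higher and 1.65% lower, with 0 transporters among them. The median log2 fold change was 0.10 over the 16 probe sets and 0.01 over all probe sets.

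**Figure D1:**
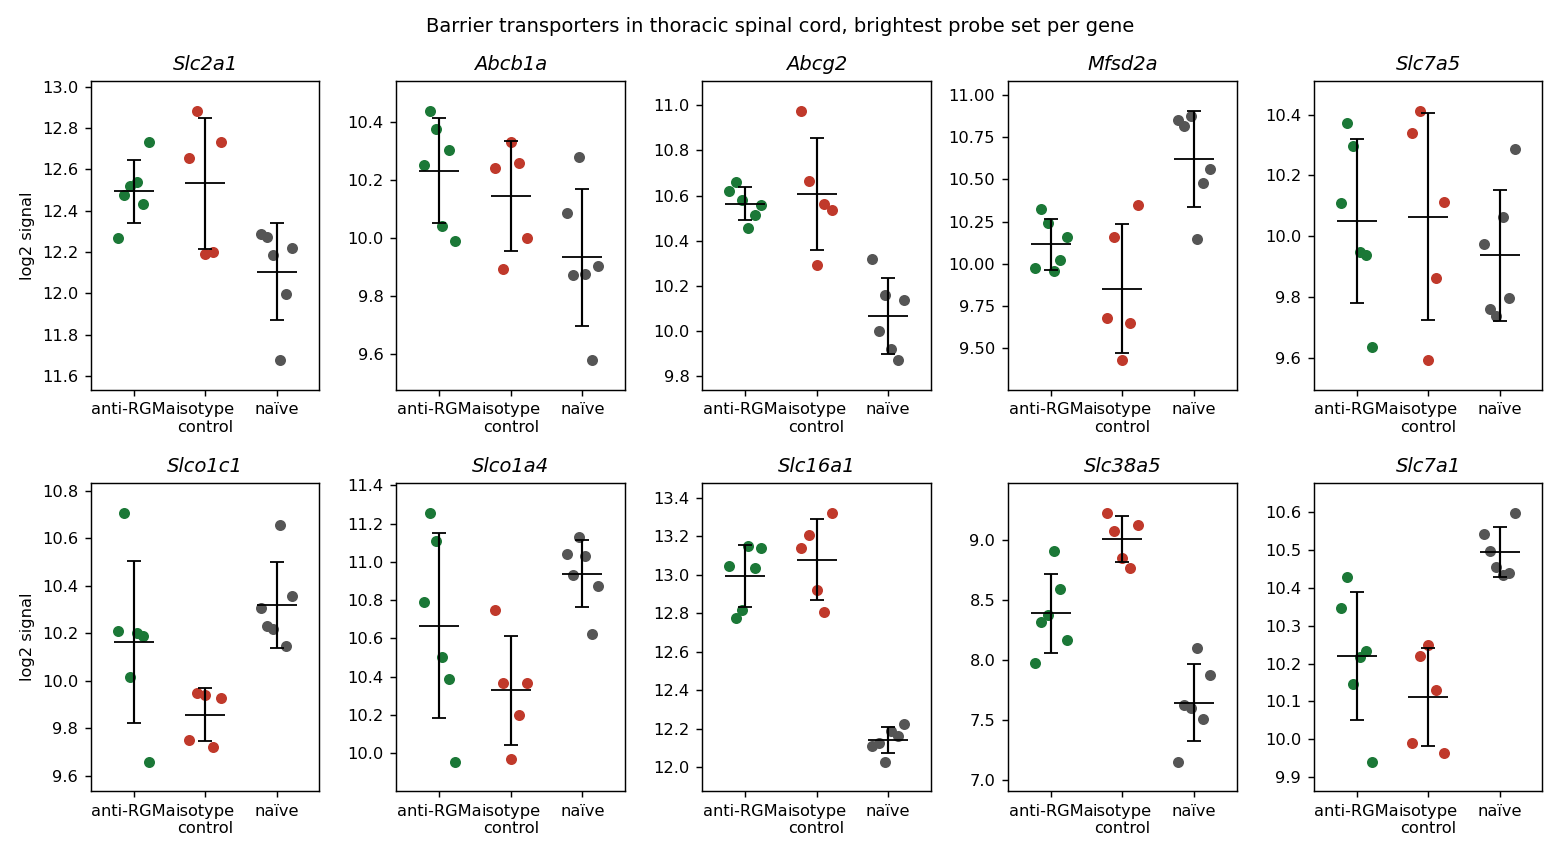
Log2 signal of the brightest probe set of each of the 10 transporter genes, with 1 point per mouse, the group mean as a horizontal line and its SD as the bar, in anti-RGMa (n = 6), isotype control (n = 5) and naïve mice (n = 6). Each panel has its own axis, which does not start at 0. Slc16a1 lies between 12.77 and 13.32 in both groups with EAE and between 12.03 and 12.23 in naïve mice, whereas Slco1c1 lies below every naïve value in isotype control mice only.

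The promoters of 3 members are shown. Slc38a5 and Slc16a1 had the largest rises among the brightest probe sets. Slco1c1 fell in isotype control mice, by less than Mfsd2a, so that these windows do not stand for all genes that rose or fell. Each is the 250 bases upstream of the RefSeq start site in assembly GRCm38.p6, 5′ to 3′ on the gene's strand, with matches to 6 short motifs in capitals.
Slc38a5, chrX:8271131-8271380, plus strand: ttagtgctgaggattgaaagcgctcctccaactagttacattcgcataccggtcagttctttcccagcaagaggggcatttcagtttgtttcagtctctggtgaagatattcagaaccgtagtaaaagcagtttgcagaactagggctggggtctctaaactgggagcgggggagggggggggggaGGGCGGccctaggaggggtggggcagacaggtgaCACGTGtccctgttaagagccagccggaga
Slc16a1, chr3:104638414-104638663, plus strand: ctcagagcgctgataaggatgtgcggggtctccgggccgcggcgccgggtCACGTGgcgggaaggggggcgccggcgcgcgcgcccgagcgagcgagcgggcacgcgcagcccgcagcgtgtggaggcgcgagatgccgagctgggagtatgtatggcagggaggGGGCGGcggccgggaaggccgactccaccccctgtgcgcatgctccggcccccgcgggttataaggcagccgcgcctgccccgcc
Slco1c1, chr6:141524104-141524353, plus strand: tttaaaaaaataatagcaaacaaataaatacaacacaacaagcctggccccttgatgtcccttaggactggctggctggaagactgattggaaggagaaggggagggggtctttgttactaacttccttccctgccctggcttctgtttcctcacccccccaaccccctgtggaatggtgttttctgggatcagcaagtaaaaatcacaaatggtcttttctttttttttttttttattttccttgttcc
Motifs were searched on both strands. The E-box was spelled CACGTG, and the core of a hypoxia response element, which lies inside every such E-box, ACGTG. The core of a TCF/LEF site was spelled CTTTGA, the palindrome bound by STAT factors TTCNNNGAA, and the GC box of promoters GGGCGG. The last motif was the TATA box, with the letters TATAAA. RefSeq windows were found for 9 of the 10 genes, 12 windows in all, and Slc7a5 had none. The E-box was in 2 of the 12 windows, those of Slc38a5, beginning 30 bases upstream of the start, and of Slc16a1, beginning 200 bases upstream, and in 6.0% of 32851 RefSeq windows of the same length. The GC box was in 6 of the 12 windows, of Slc38a5, Slc16a1, Slc2a1, Abcg2 and Slc7a1, and in 32.7% of all windows. The core of a hypoxia response element stood without the full E-box in the windows of Slc2a1 and Mfsd2a, and was in 16.6% of all windows, those with the E-box included. The TCF/LEF core was in the windows of Abcb1a, Mfsd2a and Slc7a1 and in 13.8% of all windows. The STAT palindrome and the TATA box were each in 1 of the 12 windows, of Slc7a1, and in 7.0% and 12.4% of all windows. The windows of Slco1c1 and Slco1a4 held 0 matches to any of the 6. These are letters in a window and no measure of binding.

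Slc38a5 encodes SNAT5, a carrier of glutamine, asparagine, histidine and serine, and of the probe sets called against naïve cord it had the largest rise in isotype control mice. Its log2 signal ran from 7.98 to 8.91 (median 8.35) in anti-RGMa mice. It was 9.23, 9.07, 8.85, 8.77 and 9.12 in the 5 isotype control mice, against 7.16 to 8.10 (median 7.61) in naïve mice. All isotype control values lay above all naïve values, and anti-RGMa values lay between the other 2 groups and overlapped with both. Against naïve mice the rise was 0.75 ± 0.17 on the log2 scale in anti-RGMa mice (SE, 1.68-fold, adjusted p = 0.00249, limma), with 6 of 6 values above the naïve mean. In isotype control mice it was 1.36 ± 0.18 (SE, 2.57-fold, adjusted p = 1.6e-05, limma). When each array was set against its endothelial markers, the call in anti-RGMa mice was lost (0.23, adjusted p = 0.210, limma).

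Slc38a5 was also the transporter with the smallest p between the antibodies. The mean log2 signal was 8.39 ± 0.33 in anti-RGMa mice and 9.01 ± 0.19 in isotype control mice (SD, n = 6 and n = 5). The difference was -0.62 (95% interval -0.99 to -0.25), a 1.54-fold lower signal, and all 6 anti-RGMa values lay below the isotype control mean, although the highest anti-RGMa value, 8.91, was above the lowest isotype control value, 8.77. Its unadjusted p was 0.00289 and its adjusted p 0.262 (limma), so that it was not called. It was the only one of the 16 probe sets past the threshold that the study used between the antibodies, which asks for a fold change over 1.5 and a p, before adjustment, under 0.05, and which 1.42% of all probe sets passed as higher and 2.55% as lower. It no longer passed that threshold with an offset of 32 or array weights, or without anti-RGMa replicate 1 or 6 or isotype control replicate 1. Markers of some other cells differed in the same direction, with a median over 14 endothelial genes of -0.31 and over 10 macrophage and monocyte genes of -0.39. Medians were -1.80 over 7 skeletal muscle, -1.05 over 7 fibroblast and meningeal and -0.47 over 5 proliferation genes. They were -0.16 over 7 T cell and B cell, -0.11 over 7 pericyte and -0.07 over 3 erythroid genes. Others differed in the opposite direction, with medians of 0.46 over 8 neuron, 0.29 over 8 astrocyte and 0.23 over 7 oligodendrocyte genes, and the part of these cells in the difference was not tested. Relative to the endothelial markers of the same array the difference was -0.28 (adjusted p = 0.212, limma).

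Slc16a1, which encodes the monocarboxylate transporter MCT1 for lactate, pyruvate and ketone bodies, rose in both groups with EAE. Its bright probe set 1415802_at gave 12.77 to 13.15 (median 13.04) in anti-RGMa mice. It gave 13.14, 13.21, 12.92, 12.81 and 13.32 in isotype control mice, against 12.03 to 12.23 (median 12.14) in naïve mice. Every mouse with EAE was above every naïve mouse, and naïve values had the smallest spread (SD 0.16 in anti-RGMa, 0.21 in isotype control and 0.07 in naïve mice). The rise was 0.85 ± 0.10 in anti-RGMa mice (SE, 1.81-fold, adjusted p = 6.5e-06, limma) and 0.94 ± 0.10 in isotype control mice (SE, 1.92-fold, adjusted p = 2.6e-06, limma). Set against endothelial markers, both calls were lost, at 0.34 (adjusted p = 0.0685) in anti-RGMa and 0.08 (adjusted p = 0.670, limma) in isotype control mice. Anti-RGMa minus isotype control gave -0.09 (95% interval -0.30 to 0.13). The other probe set, 1446274_at, was dim and scattered, from 4.07 to 5.97 in anti-RGMa, 4.83 to 5.68 in isotype control and 2.41 to 5.90 in naïve mice, and passed in no comparison.

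The glucose carrier GLUT1, encoded by Slc2a1, rose by its brightest probe set in both groups. Setting each array against its endothelial markers lowers every difference from naïve, and the probe set was then not called. It stood at -0.13 (adjusted p = 0.565) in anti-RGMa and -0.43 (adjusted p = 0.0531, limma) in isotype control mice. Probe set 1434773_a_at gave 12.27 to 12.73 (median 12.50) in anti-RGMa mice. It gave 12.66, 12.88, 12.19, 12.20 and 12.73 in isotype control mice, against 11.68 to 12.28 (median 12.20) in naïve mice. Isotype control replicates 3 and 4, which were among the 3 arrays with the most muscle signal in that group, lay within the naïve range, and the other 3 lay above it. The rise was 0.39 ± 0.14 in anti-RGMa mice (SE, adjusted p = 0.0364, limma) and 0.43 ± 0.14 in isotype control mice (SE, adjusted p = 0.0230, limma). The other probe sets, 1426599_a_at and 1426600_at, differed from naïve by 0.35 and 0.24 in anti-RGMa mice and by 0.24 and 0.07 in isotype control mice, and were not called. For 1426599_a_at that depended on the setting. Without isotype control replicates 3, 4 and 5 it was called in both groups, at 0.35 (adjusted p = 0.0226) in anti-RGMa and 0.54 (adjusted p = 0.0140, limma) in isotype control mice. In anti-RGMa mice it was also called with quantile normalization, the filter on dim probe sets, 2 groups in the fit, an intensity trend or array weights, and without isotype control replicate 3 (adjusted p 0.0287 to 0.0464, limma). Anti-RGMa minus isotype control gave -0.04 (95% interval -0.35 to 0.27), 0.11 (-0.22 to 0.43) and 0.17 (-0.16 to 0.49) for the 3 probe sets. In isotype control mice the gene was no longer called when isotype control replicate 1 (adjusted p = 0.0546), 2 (0.0691) or 5 (0.0615) or naïve replicate 4 (0.0530) was left out, with only 2 groups in the fit (0.0527), and with the mean of the 3 probe sets (0.25, adjusted p = 0.188, limma). In anti-RGMa mice this happened for anti-RGMa replicate 2, 3, 4 or 6 and naïve replicate 4 or 5 (adjusted p 0.0518 to 0.0867), and with the mean of the probe sets (0.33, adjusted p = 0.0800, limma).

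Abcg2 and 1 of the 2 probe sets of Abcb1a, the efflux pumps among the members, rose. Abcg2 encodes the breast cancer resistance protein, a pump of sulfated compounds and of lipophilic ones. Its signal was 10.46 to 10.66 (median 10.57) in anti-RGMa mice. It was 10.97, 10.66, 10.29, 10.56 and 10.54 in isotype control mice, against 9.87 to 10.32 (median 10.07) in naïve mice. All 6 anti-RGMa values, and 4 of the 5 isotype control values, lay above the highest naïve value. The rise was 0.50 ± 0.10 in anti-RGMa mice (SE, 1.41-fold, adjusted p = 0.00167, limma) and 0.54 ± 0.11 in isotype control mice (SE, 1.45-fold, adjusted p = 7.7e-04, limma). It turned to -0.022 and -0.32 when each array was set against its endothelial markers, not called (adjusted p = 0.901 and 0.0575, limma). Anti-RGMa minus isotype control gave -0.04 (95% interval -0.28 to 0.19).

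Abcb1a encodes P-glycoprotein, the main pump of the barrier for lipophilic drugs, and its 2 probe sets gave different calls. Probe set 1419758_at gave 9.20 to 9.81 (median 9.50) in anti-RGMa mice. It gave 9.81, 9.40, 10.03, 9.71 and 9.60 in isotype control mice, against 8.85 to 9.54 (median 9.13) in naïve mice. Of the 5 isotype control values, 4 lay above the naïve range. The rise was 0.38 ± 0.13 in anti-RGMa mice (SE, adjusted p = 0.0318, limma) and 0.57 ± 0.14 in isotype control mice (SE, 1.49-fold, adjusted p = 0.00274, limma). It turned to -0.14 and -0.29 relative to endothelial markers, not called (adjusted p = 0.514 and 0.161, limma). The brighter probe set 1419759_at differed from naïve by 0.30 (adjusted p = 0.0632) in anti-RGMa mice and by 0.21 (adjusted p = 0.189, limma) in isotype control mice and was not called. In anti-RGMa mice it was called with the filter on dim probe sets, an intensity trend or array weights, and without anti-RGMa replicate 6 or naïve replicate 3 (adjusted p 0.0237 to 0.0411, limma). With the mean of both probe sets the gene was called, at 0.34 (adjusted p = 0.0375) in anti-RGMa mice and 0.39 (adjusted p = 0.0186, limma) in isotype control mice. Anti-RGMa minus isotype control gave 0.09 (95% interval -0.18 to 0.36) for 1419759_at and -0.19 (-0.49 to 0.10) for 1419758_at. The call of 1419758_at in anti-RGMa mice was lost without any one of anti-RGMa replicates 2, 5 and 6 or naïve replicates 2, 4 and 5 (adjusted p 0.0510 to 0.0755, limma), and that in isotype control mice without isotype control replicates 3, 4 and 5 together (0.47, adjusted p = 0.0678, limma).

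Among the genes that fell, Mfsd2a had the largest change. It encodes the sodium-dependent carrier of lysophosphatidylcholine with docosahexaenoic acid, and in mouse it is known to hold down vesicle transport in barrier endothelium. Its signal was 9.96 to 10.32 (median 10.09) in anti-RGMa mice. It was 9.68, 10.16, 9.43, 9.65 and 10.35 in isotype control mice, against 10.15 to 10.87 (median 10.69) in naïve mice. The lowest naïve value, of replicate 4, lay among the values of mice with EAE, and the other 5 naïve values lay above all of them. Mfsd2a fell by 0.51 ± 0.16 on the log2 scale in anti-RGMa mice (SE, 1.42-fold, adjusted p = 0.0202, limma) and by 0.77 ± 0.17 in isotype control mice (SE, 1.71-fold, adjusted p = 0.00131, limma). Anti-RGMa values were all above the isotype control mean, and the difference of 0.26 (95% interval -0.10 to 0.62) was not called (adjusted p = 0.497, limma).

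Slco1c1 and Slco1a4 encode OATP1C1, a carrier of thyroxine, and OATP1A4, a carrier of organic anions such as bile salts and steroid conjugates. The genes lie 235 kb apart on opposite strands of chromosome 6 in GRCm38.p6, and both fell in isotype control mice. Slco1c1 ran from 9.66 to 10.71 (median 10.19) in anti-RGMa mice. It gave 9.75, 9.95, 9.94, 9.72 and 9.93 in isotype control mice, against 10.15 to 10.66 (median 10.27) in naïve mice. All isotype control values were below all naïve values, and anti-RGMa values overlapped with both groups. The difference between isotype control and naïve mice was -0.46 ± 0.14 (SE, 1.38-fold, adjusted p = 0.0149, limma).

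Slco1a4 ran from 9.96 to 11.26 (median 10.65) in anti-RGMa mice. It gave 10.75, 10.37, 9.97, 10.20 and 10.37 in isotype control mice, against 10.63 to 11.13 (median 10.98) in naïve mice. The isotype control values lay below the naïve range in 4 of 5 mice, and the difference was -0.61 ± 0.20 (SE, 1.53-fold, adjusted p = 0.0208, limma). Without isotype control replicate 3 that call was lost (-0.52, adjusted p = 0.0580, limma). Without replicates 3, 4 and 5, the arrays with the most muscle signal in the group, both OATP calls were lost, with only replicates 1 and 2 left. Slco1c1 was then at -0.47 (adjusted p = 0.100, limma), beside -0.46 with all arrays. Slco1a4 was at -0.38 (adjusted p = 0.318, limma), beside -0.61.

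In anti-RGMa mice neither OATP gene was called against naïve, and both had their widest spread in this group. The highest anti-RGMa value of both genes was in replicate 2 and the lowest in replicate 6. That array had the lowest neuron and highest macrophage markers of the anti-RGMa group, and their part in this was not tested. The differences from naïve were -0.16 for Slco1c1 (95% interval -0.45 to 0.14) and -0.27 for Slco1a4 (-0.68 to 0.14). Against isotype control mice they were 0.31 for Slco1c1 (95% interval -0.0019 to 0.61, unadjusted p = 0.0513, adjusted p = 0.373) and 0.34 for Slco1a4 (-0.09 to 0.77, adjusted p = 0.463, limma), with 5 of 6 anti-RGMa values above the isotype control mean for each gene. Both sets of differences share the anti-RGMa arrays. A call in one antibody group and none in the other does not show that they differ, and the test of that difference, anti-RGMa against isotype control, was not passed.

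Slc7a1 encodes CAT1, the carrier of arginine, lysine and ornithine, and fell by a small amount in both groups with EAE. Probe set 1454991_at gave 9.94 to 10.43 (median 10.22) in anti-RGMa mice. It gave 9.99, 10.22, 10.25, 10.13 and 9.96 in isotype control mice, against 10.43 to 10.60 (median 10.48) in naïve mice. Every mouse with EAE was below every naïve mouse, in the anti-RGMa group by a margin of 0.00588 in log2 signal. The difference from naïve was -0.28 ± 0.08 in anti-RGMa mice (SE, adjusted p = 0.0169, limma) and -0.38 ± 0.09 in isotype control mice (SE, adjusted p = 0.00191, limma). Anti-RGMa minus isotype control gave 0.11 (95% interval -0.08 to 0.30). The dimmer 1454992_at had differences from naïve of -0.19 in anti-RGMa and -0.28 in isotype control mice, and the dimmest, 1421533_at, of 0.20 and 0.00, none of them called. In isotype control mice 1454992_at was called without isotype control replicate 4 (-0.37, adjusted p = 0.0202) or replicates 3, 4 and 5 (-0.58, adjusted p = 0.00477), with quantile normalization (adjusted p = 0.0494) and with the filter on dim probe sets (adjusted p = 0.0493, limma). With the mean of the 3 probe sets the gene was called neither in anti-RGMa (-0.09, adjusted p = 0.537) nor in isotype control mice (-0.22, adjusted p = 0.0953, limma).

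Slc7a5, which encodes LAT1, the carrier of large neutral amino acids, was called in no comparison. It gave 9.63 to 10.37 (median 10.03) in anti-RGMa mice. It gave 10.34, 10.41, 9.59, 9.86 and 10.11 in isotype control mice, against 9.74 to 10.29 (median 9.88) in naïve mice. The 3 groups overlapped throughout. The 95% intervals of the differences ran from -0.36 to 0.34 for anti-RGMa minus isotype control, from -0.22 to 0.45 for anti-RGMa minus naïve and from -0.22 to 0.48 for isotype control minus naïve.

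**Figure D2:**
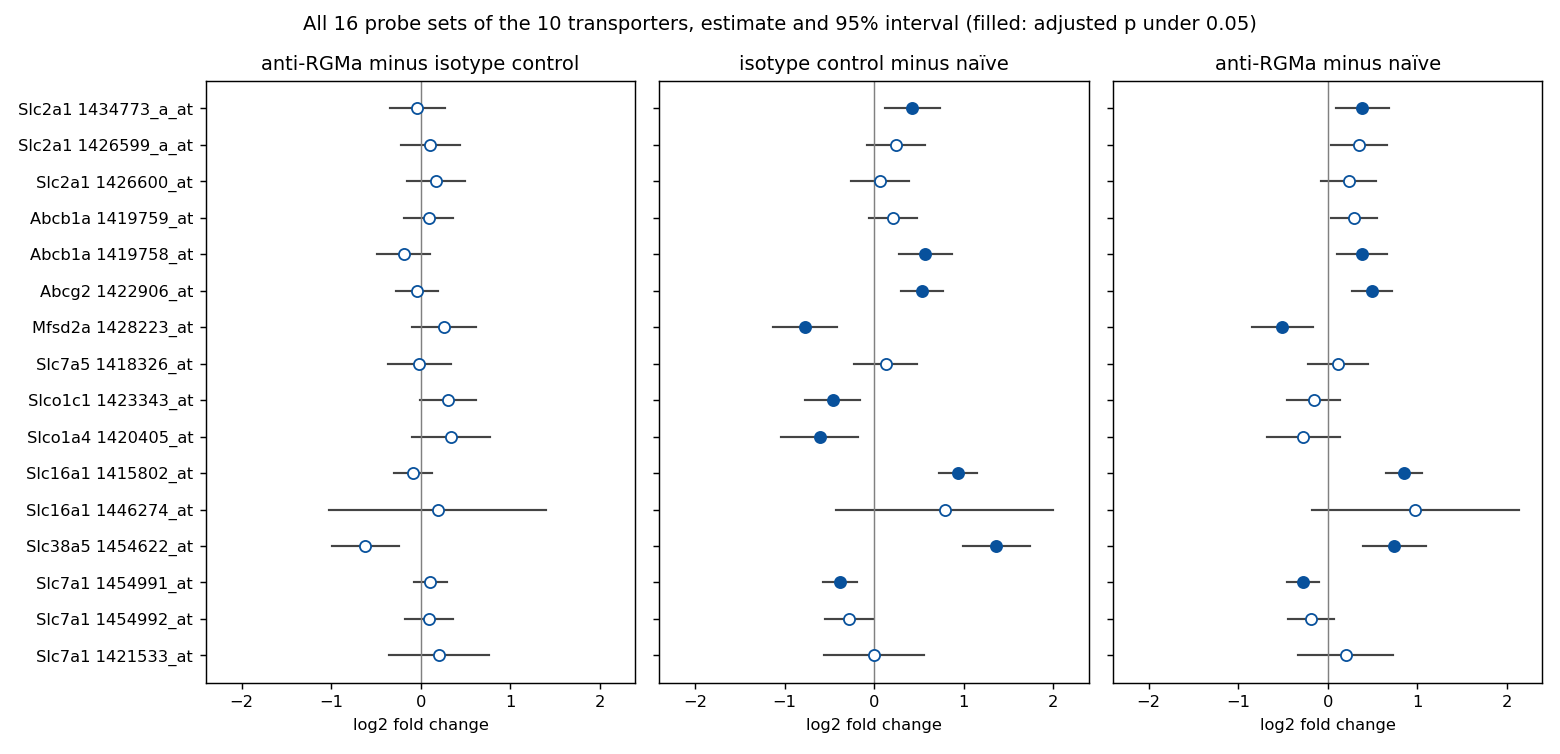
Log2 fold change with its 95% interval for all 16 probe sets of the 10 transporters, for anti-RGMa minus isotype control, isotype control minus naïve and anti-RGMa minus naïve, with filled points where the adjusted p was under 0.05. In the first comparison 0 points are filled and only the interval of Slc38a5, from -0.99 to -0.25, leaves out 0, while in the second 5 filled points lie above 0 and 4 below it. Set against the endothelial markers of the same array, the called rises of Slc2a1, Abcb1a and Abcg2 turn below 0 and are not called. That scaling shifts every difference from naïve by -0.52 in anti-RGMa and -0.86 in isotype control mice, so that any smaller rise turns.

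Proteins that work with these carriers were followed by their genes. Basigin (Bsg), the chaperone of MCT1, had log2 fold changes against naïve of 0.04 in anti-RGMa mice, not called, and -0.25 in isotype control mice (adjusted p = 0.0303, limma). Embigin (Emb), another chaperone of monocarboxylate carriers, differed by 0.39 in anti-RGMa mice, not called, and rose by 0.59 in isotype control mice (adjusted p = 0.0367, limma). Slc3a2, the heavy chain that LAT1 needs, differed by 0.17 and 0.20 and was called in neither.

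The other efflux pumps of the ABC family mostly rose. Of 4 genes, 3 were called higher and 0 lower than naïve in anti-RGMa mice, and 3 higher and 1 lower in isotype control mice, where 19.8% and 24.2% of all genes were called higher and 20.8% and 26.6% lower. Abcb1b, which also encodes P-glycoprotein in mouse, rose by 1.23 in anti-RGMa mice (adjusted p = 0.00669) and by 1.73 in isotype control mice (adjusted p = 4.9e-04, limma). Abcc1 and Abcc4, pumps of glutathione conjugates and of organic anions, rose by 0.60 each in anti-RGMa mice and by 0.87 and 0.73 in isotype control mice. Abcc5, a pump of cyclic nucleotides and other organic anions, differed by -0.20 in anti-RGMa mice, not called, and by -0.33 in isotype control mice (adjusted p = 0.0187, limma), where 5 of its 10 probe sets were called lower.

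Other solute carriers of brain endothelium moved in both directions. Of 15 genes measured, 4 were called higher and 2 lower than naïve in anti-RGMa mice. In isotype control mice 4 were higher and 3 lower. Among all genes 19.8% were called higher and 20.8% lower in anti-RGMa mice, and 24.2% higher and 26.6% lower in isotype control mice. The median log2 fold change in isotype control mice was -0.0038, beside -0.04 over the brightest probe set of every gene. The rises in isotype control mice were Slc1a5, a carrier of glutamine and other neutral amino acids (2.43), Slco2b1, an organic anion carrier also found in microglia (1.83), Slc39a8, an importer of zinc and manganese (1.37), and the taurine carrier Slc6a6 (0.65). The falls were the vitamin carrier Slc5a6 (-0.84), the zinc importer Slc39a10 (-0.68) and Slc16a4 of the monocarboxylate carrier family (-0.46), of which Slc5a6, Slc16a4 and the risen Slc6a6 were named after their values were seen. Between anti-RGMa and isotype control mice 0 of the 15 were called, and Slc1a5, which differed by -0.75 (unadjusted p = 0.00519, adjusted p = 0.275, limma), was the only one past the study's threshold. Abcb1b, Slc1a5 and Slc39a8 had 2 probe sets each, of which 1 was called.

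Vesicle routes across endothelium were described by receptors and by caveolar genes. Of 5 endocytic receptors, 1 was called higher and 0 lower than naïve in anti-RGMa mice, and 1 higher and 2 lower in isotype control mice, beside 19.8% and 24.2% of all genes higher and 20.8% and 26.6% lower. Lrp1, a receptor of many ligands that macrophages and glia express too, rose by 0.77 in anti-RGMa and 1.02 in isotype control mice (adjusted p = 1.5e-04 and 1.0e-05, limma). The transferrin receptor Tfrc differed by -0.27 in anti-RGMa mice, not called, and by -0.57 in isotype control mice (adjusted p = 7.9e-04, limma), where all 6 of its probe sets were called lower. Lrp8, a receptor of apolipoprotein E and reelin, differed by -0.19 in anti-RGMa mice, not called, and by -0.55 in isotype control mice (adjusted p = 0.00672, limma). The median over 8 neuron genes was -1.03 in isotype control mice against naïve. The part of neurons and other cells in the falls of Tfrc and Lrp8 was not tested.

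Of 5 genes of caveolae and the fenestral diaphragm, 1 was called higher than naïve in anti-RGMa mice and 2 in isotype control mice, beside 19.8% and 24.2% of all genes, and 0 were lower. Cav1, the coat protein of caveolae, differed by 0.43 in anti-RGMa mice, not called, and rose by 1.10 in isotype control mice (adjusted p = 5.1e-04, limma). Cavin1, which shapes caveolae, rose by 0.62 in anti-RGMa (adjusted p = 0.0381) and 1.34 in isotype control mice (adjusted p = 2.3e-04, limma), by 1 of its 3 probe sets in the isotype control group. Against isotype control, anti-RGMa mice differed by -0.67 for Cav1 and -0.71 for Cavin1, past the study's threshold and not called (adjusted p = 0.280 each, limma). Both genes are also expressed by muscle and fibroblasts, and the mean over 7 fibroblast and meningeal genes was 10.24 to 11.44 in anti-RGMa, 11.14 to 13.09 in isotype control and 10.25 to 11.15 in naïve mice, whose part in this was not tested. Plvap, the protein of the fenestral diaphragm that mature barrier endothelium lacks, differed from naïve by -0.19 (adjusted p = 0.365) in anti-RGMa mice and by 0.25 (adjusted p = 0.224, limma) in isotype control mice.

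Of 9 Wnt pathway genes and transcription factors of barrier endothelium, 4 were called higher and 0 lower in each comparison with naïve, where 19.8% of all genes were higher in anti-RGMa and 24.2% in isotype control mice. Fzd4, the Wnt receptor of barrier vessels, rose by 0.65 in anti-RGMa and 1.02 in isotype control mice, and its co-receptor Adgra2 by 0.55 and 1.19. Lef1, a transcription factor of the pathway that T cells express too, rose by 0.95 in anti-RGMa and 1.09 in isotype control mice. In each comparison with naïve 5 of the 9 genes were not called. The list medians were 0.10 in anti-RGMa and 0.26 in isotype control mice.

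Markers of endothelium itself rose as well. Of 14 endothelial genes, 8 were called higher in anti-RGMa mice and 13 in isotype control mice, beside the same shares of all genes, with medians of 0.46 and 0.71. VE-cadherin (Cdh5), the adhesion protein of endothelial junctions, rose by 0.52 in anti-RGMa and 1.23 in isotype control mice, by 1 of its 2 probe sets in the isotype control group, and the tight junction gene Cldn5, named after its values were seen, by 0.52 and 0.67. Between anti-RGMa and isotype control mice 0 of 14 were called and 3 were lower at the study's threshold (Cdh5, Tie1 and Ecscr), with a median of -0.31. The mean log2 signal of the 14 genes was 8.40 to 8.93 in anti-RGMa mice, 8.83 to 9.29 in isotype control mice and 7.98 to 8.34 in naïve mice, and both groups with EAE lay wholly above naïve.

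The transporters were also compared after subtracting, array by array, the mean of these 14 markers. This moved the median of all probe sets by 0.34 for anti-RGMa minus isotype control, by -0.52 for anti-RGMa minus naïve and by -0.86 for isotype control minus naïve, where 63.7% of all probe sets were then called lower. On that scale 0 member genes were called higher and 4 lower than naïve in anti-RGMa mice, and 1 higher and 6 lower in isotype control mice. In isotype control mice Slc38a5 was higher (0.50, adjusted p = 0.00961), and Mfsd2a (-1.63), Slco1a4 (-1.47), Slco1c1 (-1.32), Slc7a1 (-1.24), Slc7a5 (-0.73) and Abcb1a (-0.65) were lower. The first 4 of these 6 lay below the median of all probe sets, which was at -0.92, and the other 2 lay above it.

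Between the antibodies, the subtraction gave 1 called member. Slco1c1 stood at 1.01 to 2.05 above the endothelial mean in anti-RGMa mice (median 1.38) and at 0.43 to 1.12 in isotype control mice (median 0.94). The ranges overlapped, and the difference was 0.65 ± 0.18 (SE, adjusted p = 0.0472, limma), beside a median of 0.35 over all probe sets and 9.6% of them called higher. Slco1a4 (0.68, adjusted p = 0.0513) and Mfsd2a (0.60, adjusted p = 0.0691, limma) were past the study's threshold on this scale and not called.

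**Figure D3:**
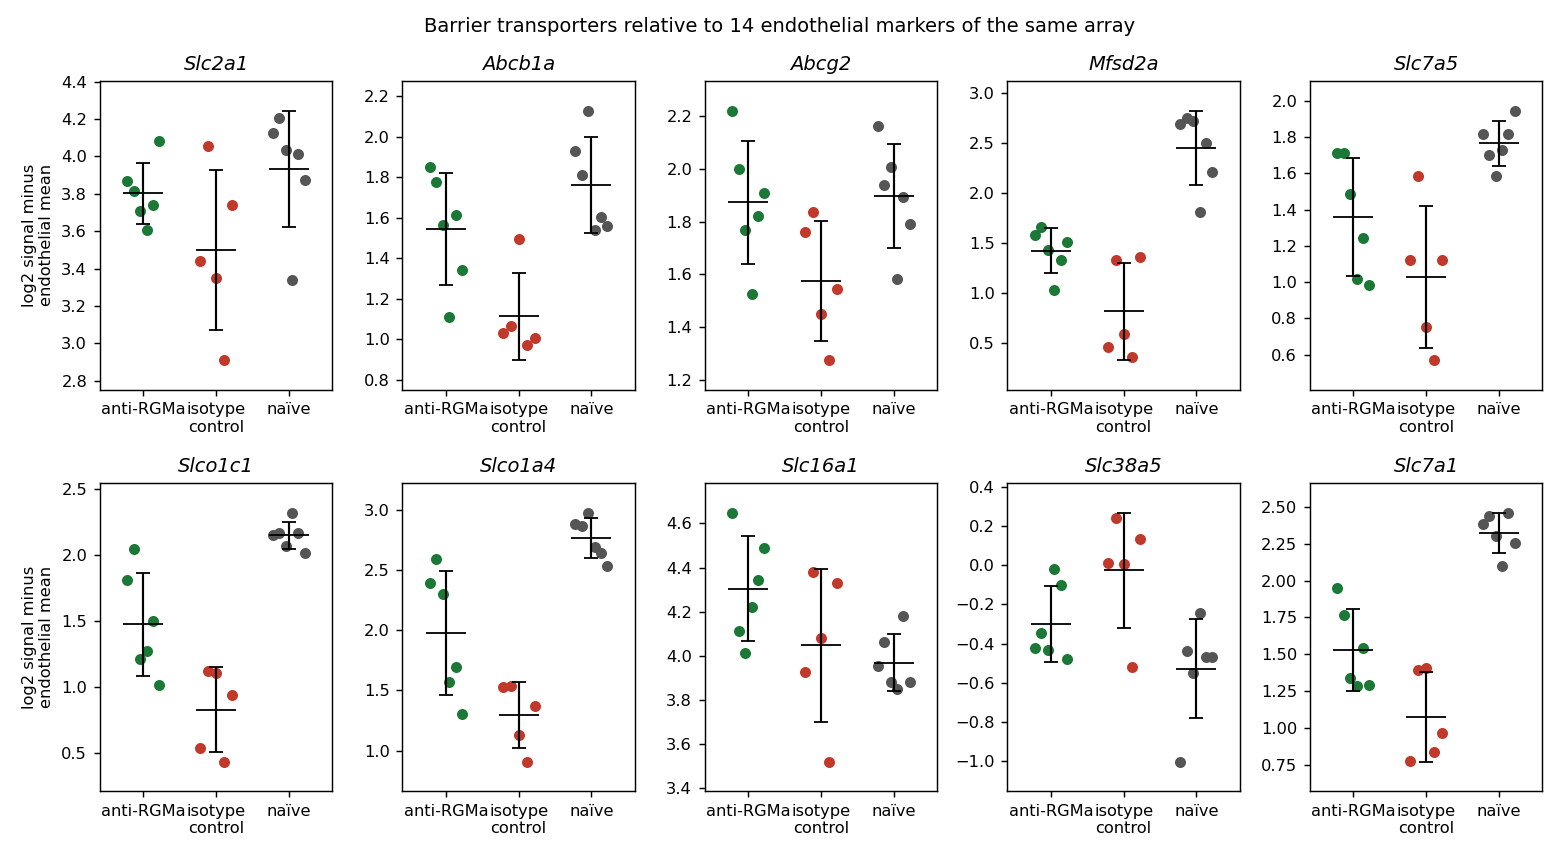
Log2 signal of each transporter minus the mean log2 signal of 14 endothelial markers of the same array, with 1 point per mouse, the mean as a line and the SD as the bar, in anti-RGMa, isotype control and naïve mice. Mfsd2a and Slc7a1 lie below every naïve value in both groups with EAE, while Slc16a1 overlaps between isotype control and naïve mice. The panels have their own axes, which do not start at 0.

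Many markers of the other cells in the piece differed from naïve with EAE. These counts stand beside 19.8% of all genes higher and 20.8% lower in anti-RGMa mice. In isotype control mice the shares were 24.2% higher and 26.6% lower. In each group with EAE, 10 of 10 macrophage and monocyte genes, 6 of 7 T cell and B cell genes and 5 of 5 proliferation genes were called higher than naïve, with medians of 3.32, 2.77 and 2.05 in anti-RGMa mice and 3.85, 3.39 and 2.52 in isotype control mice. The mean over the macrophage and monocyte genes was 10.12 to 11.28 in anti-RGMa, 10.53 to 11.50 in isotype control and 6.38 to 7.35 in naïve mice. Of 8 neuron genes, 6 were called lower in anti-RGMa and 8 in isotype control mice. Of 8 astrocyte genes, 2 were higher and 2 lower in anti-RGMa mice, and 2 higher (Slc1a3 and Aqp4, the second by 1 of its 3 probe sets) and 5 lower in isotype control mice. Of 7 pericyte genes, 3 were higher in anti-RGMa and 4 in isotype control mice, and 0 were lower. Of 3 erythroid genes 1, Slc4a1, was called higher in each group. No probe set had a signal of 0 in any array. The part of these cells in the rise of Slc16a1, Slc38a5, Abcb1a and Abcg2 and in the fall of Slco1c1 was not tested.

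**Figure D4:**
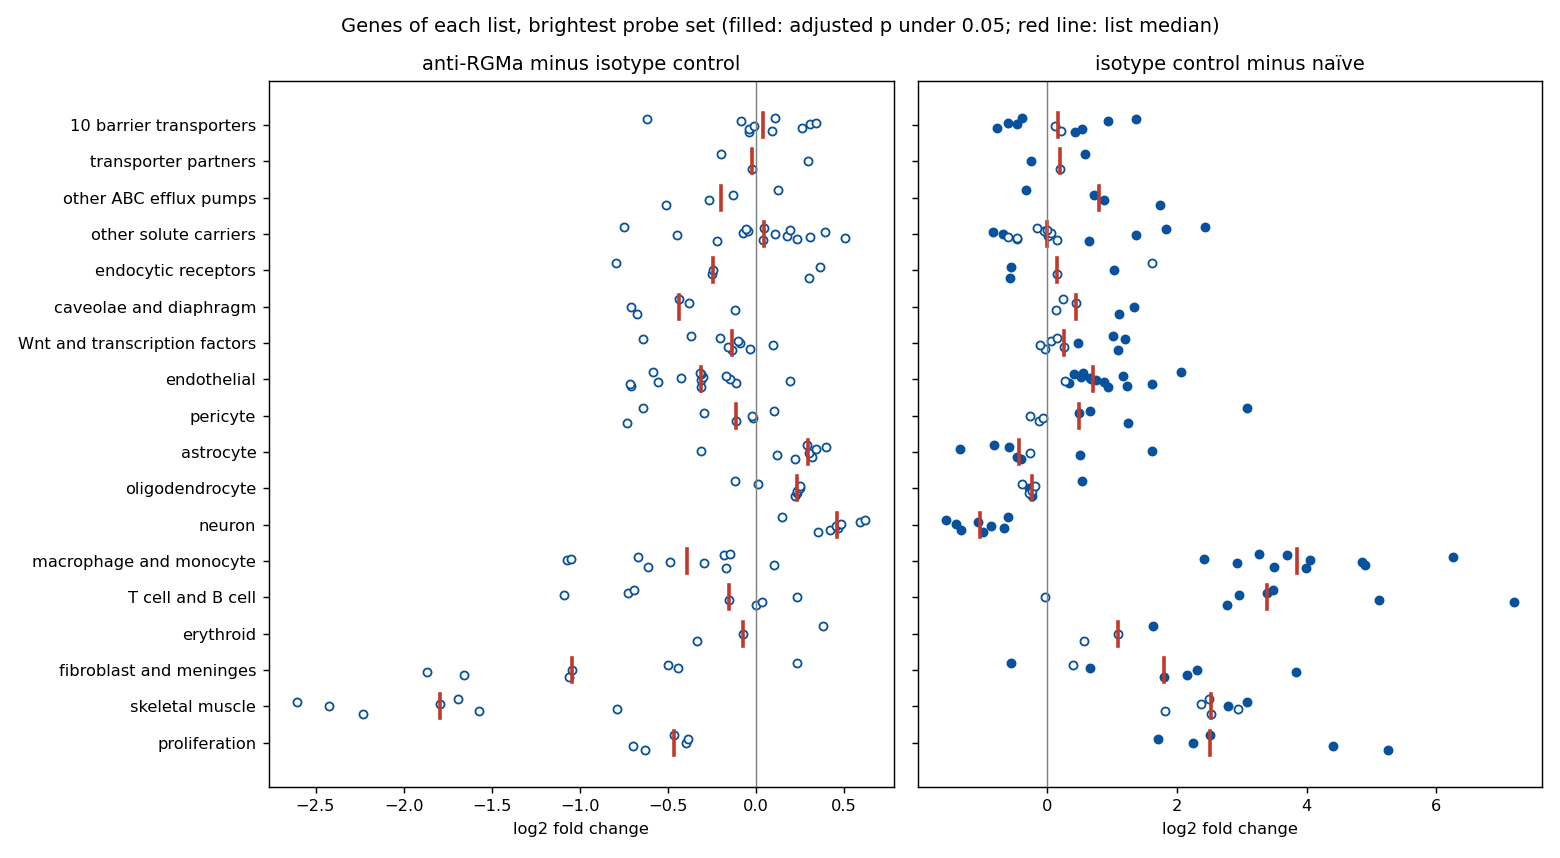
Log2 fold change of every gene in each list by its brightest probe set, for anti-RGMa minus isotype control and isotype control minus naïve, with filled points where the adjusted p was under 0.05 and a red line at the list median. The 10 transporters spread on both sides of 0 in the comparison with naïve, with 4 filled points on each side, whereas 13 of the 14 endothelial genes are filled above 0.

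Transporters varied over the mice with EAE, both antibody groups together, in more than one pattern. Over the 11 arrays of the groups with EAE, taken without naïve arrays because these stand apart for many members, the 45 pairs of members had Pearson correlations from -0.84 (Abcb1a with Slc16a1) to 0.83 (Slco1c1 with Slc7a1), with a median of 0.16. For each member the 3 genes outside the list most like it were taken among 20387 probe sets whose mean log2 signal was 7 or more. For Slc16a1 these were Cxcl10 (r = 0.96), AA467197 (0.95) and Ero1a (0.95), for Slc38a5 Isy1 (0.93), Lrg1 (0.93) and Il1r1 (0.91), and for Slco1c1 Abcb10 (0.95), Mtus2 (0.94) and Enho (0.94). The nearest gene was Dnph1 for Slc2a1 (0.93), Inpp5e for Abcb1a (0.96), Kdm4b for Abcg2 (0.93), Stk32a for Mfsd2a (0.93), Trak2 for Slc7a5 (0.91), Hacl1 for Slco1a4 (0.93) and 1110065P20Rik for Slc7a1 (0.97). Group means were left in, so that differences between the antibodies enter all of these correlations. These are the highest of many correlations over few arrays that share cell makeup, and they are given as a description.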

How the data were processed

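RNA of 17 spinal cord samples was measured on Affymetrix mouse arrays with 1 colour. The authors computed the deposited intensity of each probe set with MAS5.0 and global scaling, for which affy and MAS5 are listed, without a version, in the processing notes of the submitters. In the files the mean after trimming 2% at each end was 500 in every array, and signals ran from 0.0118 to 44408. No detection calls were used here, and dim values carry background. Precision is limited by the number of arrays.

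Gene names came from the annotation of the platform, with 34958 having 1 gene, 932 several and 9211 none of 45101. Of the 34958, 34754 were matched by gene ID to the RefSeq gene table of GRCm38.p6, and 0 symbols changed. The log2 of each signal, unfiltered and without an offset, entered a linear model over the 3 groups (lmFit and eBayes of limma 3.58.1, run in R 4.3.3, no covariate). P-values were adjusted by Benjamini-Hochberg over all 34958 probe sets. The methods of the study name limma. Its threshold, a fold change over 1.5 and a p before adjustment under 0.05, was counted beside the adjusted one. Lists other than the members used the brightest of each gene's probe sets. All columns of the table were mapped to samples, and no 2 arrays held identical values.

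The transporters and the other lists were chosen with earlier results of these data known. All members are named with every probe set. Of each other list up to 4 genes with the smallest p between isotype control and naïve were eligible to be named, and for likeness the 3 highest Pearson correlations. Alternatives covered quantile normalization, an offset of 32, a filter at a mean log2 of 7, 1 value per gene, the arrays in the fit, an intensity trend, array weights, a replicate block, scaling to endothelial markers, leaving out each array and leaving out isotype control replicates 3, 4 and 5. Replicate numbers were not taken as pairs, because residuals of arrays with the same number correlated between -0.045 and 0.041.

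Simulated data with known changes, for isotype control against naïve over 34958 probe sets, were used to test the fit. It called 36 of 100 probe sets changed by 0.75 on the log2 scale, 64 of 100 changed by 1.5 and 6 of 34758 unchanged ones. These changed probe sets were a far smaller share than the 21.4% called higher and 26.3% called lower in the data. The adjustment was therefore stricter in the simulation, and its rates do not give the sensitivity in the data. Python 3.11.15 with matplotlib 3.10.9 drew the figures. Promoter windows came from RefSeq with the 50 bases after the start site left out.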

Additional observations from a re-analysis of the deposited data

Results flagged for a closer look

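In 1 of 48 groups of arrays, 3 for each of the 16 transporter probe sets, a single array stood far from the rest of its group by Dixon's test. It was anti-RGMa replicate 5 in the dim Slc16a1 probe set 1446274_at, with a log2 signal of 4.07, where the other 5 anti-RGMa arrays had 5.45 to 5.97. The gap to the nearest array was 0.728 of the range of the group. Chance alone gives such a mark in about 1 of 20 groups. The same array had 13.04 in the bright Slc16a1 probe set 1415802_at, within the 12.77 to 13.15 of its group.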

How the results depend on the processing

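The calls of Slc38a5, Slc16a1 1415802_at, Abcg2 and Mfsd2a against naïve held in both groups with EAE under every alternative run, except scaling to endothelial markers. That scaling turned 10 values, with isotype control minus naïve at -0.43, -0.62 and -0.79 for the 3 Slc2a1 probe sets, -0.65 and -0.29 for Abcb1a, -0.32 for Abcg2 and -0.73 for Slc7a5, and anti-RGMa minus naïve at -0.13 for Slc2a1 1434773_a_at, -0.14 for Abcb1a 1419758_at and -0.022 for Abcg2. It shifts every probe set by the endothelial mean of its array. A change of sign between 2 values that were both not called is not counted among these.

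Against naïve, that scaling gave 0 member genes higher and 4 lower in anti-RGMa mice, with 6.75% of probe sets higher and 50.8% lower, and 1 higher in isotype control mice, with 6.68% higher and 63.7% lower. The filter on dim probe sets gave 33.6% lower in anti-RGMa and 39.7% in isotype control mice. The mean of probe sets gave 1 member gene lower in anti-RGMa mice, and leaving out isotype control replicates 3, 4 and 5 gave 2 lower in isotype control mice. For anti-RGMa against isotype control, the share called higher was 0.0055% with 1 value per gene by the brightest probe set or by the mean, 0.00286% with an intensity trend, 9.6% with endothelial scaling and 0.0572% without isotype control replicates 3, 4 and 5. The share called lower was 0.0715% with endothelial scaling and 0.00286% without those replicates. With endothelial scaling 1 member gene was higher. At the study's threshold the share higher was 0.458% with the offset, 0.779% with the filter, 13.6% with endothelial scaling and 3.94% without those replicates, and the share lower was 0.601% with endothelial scaling and 1.52% without those replicates. The number of member genes at that threshold was 0 with the offset or array weights and 3 with endothelial scaling. The cause of these changes was not tested.

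With the replicate number as a block, anti-RGMa against isotype control gave 0.0114% of probe sets lower and 2.17% higher at the study's threshold, with Slc38a5 at -0.62 (adjusted p = 0.177, limma), and no call of a transporter against naïve was changed.

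Leaving out each array in turn gave 0% to 2.81% of probe sets higher and 0% to 1.65% lower between anti-RGMa and isotype control, each highest without anti-RGMa replicate 6, with 0 member genes called. At the study's threshold it gave 1.12% to 2.95% higher, 1.85% to 3.68% lower and 0 to 1 member genes. Against naïve it gave 3 to 5 member genes higher and 2 to 2 lower in anti-RGMa mice, and 3 to 4 higher and 3 to 4 lower in isotype control mice. Slc38a5 stayed at -0.72 to -0.54 between the antibodies, with adjusted p from 0.0817 to 0.528 (limma).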
